A study of Mus musculus with 2 samples.

Results

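The p53 response was followed through 10 genes in single cells of mice that carried 4T1 breast tumor metastases in the liver: Cdkn1a, Mdm2, Bax, Ccng1, Phlda3, Zmat3, Trp53inp1, Bbc3, Sesn2 and Trp53 itself. They were chosen by symbol as known p53 targets, with earlier results of these data known, and all 10 of 10 were found once among the 32285 genes of each count matrix. The mice were BALB/cAnNCrl females, 7 to 8 weeks old, whose 4T1 cells had been introduced through a hemisplenectomy procedure. Each received a hepatic artery infusion (HAI) of the vehicle, of a low dose or of a high dose of CBL0137, a curaxin that loosens the binding of DNA to histones, and the sources used here do not state those doses. Cells were collected 5 days later from the liver and from the spleen, with 2 mice pooled in each group. The cells of each group carried a hashtag antibody with its own barcode, and the 3 groups of a tissue were then run together as 1 library, so that 2 libraries hold all the data. The labels call the cells leukocytes from a density gradient, whereas the study's methods name CD11b+ bead isolation, and those methods print the barcodes of all 3 hashtags but name 2 of them, not the low-dose one, as the antibodies used.

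The p53 protein, which Trp53 encodes, is a transcription factor held at a low level by the ubiquitin ligase Mdm2 and stabilised when DNA is damaged or chromatin is disturbed. It then raises the transcription of genes that stop the cell cycle (Cdkn1a), temper growth signals and oxidative stress (Sesn2, Zmat3, Trp53inp1), promote cell death (Bax, Bbc3, Phlda3) and turn p53 off again (Mdm2, Ccng1). Because p53 is governed mainly through protein stability, the Trp53 transcript itself is not a readout of p53 activity, and Cdkn1a in myeloid cells is also under the control of other factors. Curaxins are known to activate p53 in tumor cells while inhibiting NF-kB.

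Groups were read from the hashtag barcodes, which are shown because every comparison rests on them. The capitals mark the whole barcode.

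A0301, vehicle: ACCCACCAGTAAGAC
A0305, low dose: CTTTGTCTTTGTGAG
A0310, high dose: CCGATTGTAACAGAC

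On GRCm38 (GENCODE vM21), all members were protein-coding. Trp53 (ENSMUSG00000059552) lay on the plus strand at chr11:69580359-69591873, Mdm2 (ENSMUSG00000020184) on the minus strand at chr10:117688875-117710758 and Ccng1 (ENSMUSG00000020326) on the minus strand at chr11:40748552-40755311. Cdkn1a (ENSMUSG00000023067) lay on the plus strand at chr17:29090976-29100727. Sesn2 (ENSMUSG00000028893) was found on the minus strand at chr4:132492032-132510501, Zmat3 (ENSMUSG00000027663) on the minus strand at chr3:32334792-32366014 and Trp53inp1 (ENSMUSG00000028211) on the plus strand at chr4:11156431-11174379. Bax (ENSMUSG00000003873) lay on the minus strand at chr7:45461697-45466898, Bbc3 (ENSMUSG00000002083) on the plus strand at chr7:16308393-16318205 and Phlda3 (ENSMUSG00000041801) on the plus strand at chr1:135766119-135769136. RefSeq promoter windows (GRCm38.p6, 250 bases before to 50 bases after each start site) were matched by symbol for 8 of the 10 members, and Zmat3 and Trp53inp1 had none in the table. The windows were searched for exact matches to the p53 consensus decamer, a 10-base pattern that reads the same on both strands and that p53 binds as a pair of copies. A match was present for 5 of the 8 members, compared with 9.55% of the 27025 genes with a window, or 8.36% of 32851 windows. The matches are printed to show where members carry the letters of the p53 motif close to their start, with the decamer in capitals and 10 bases on each side, on the strand of the gene.

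Cdkn1a, first base at -73, chr17:29090906-29090915: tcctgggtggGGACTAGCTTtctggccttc
Cdkn1a, first base at -51, chr17:29090928-29090937: tggccttcagGAACATGTCTtgacatgttc
Mdm2, first base at -186, chr10:117710935-117710944: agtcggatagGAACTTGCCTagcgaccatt
Bax, first base at -201, chr7:45467090-45467099: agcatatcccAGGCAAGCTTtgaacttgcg
Ccng1, first base at -185, chr11:40755462-40755471: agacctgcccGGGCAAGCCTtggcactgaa
Trp53, first base at -75, chr11:69580284-69580293: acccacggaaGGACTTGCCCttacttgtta

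The windows of Phlda3, Bbc3 and Sesn2 held no exact match, which says only that these letters are not in that stretch. A match is a description of the sequence and not evidence of binding.

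The library that GEO labels as liver held 9591 barcodes and the one labelled as spleen 4830. Of these, 8435 and 2988 barcodes were given exactly 1 hashtag and were analysed, with 68667953 and 28272132 gene UMIs: the liver-labelled library had 3103 cells of the vehicle group, 3194 of the low-dose group and 2138 of the high-dose group, and the spleen-labelled library 822, 1301 and 865. The libraries shared 15 barcode sequences. The markers went against the tissue labels. Clec4f, a gene of liver-resident macrophages, had 0 UMIs in the liver-labelled library and 124.5 per 1000000 gene UMIs (CPM) in the spleen-labelled library. Hepatocyte markers summed to 0.087 and 76.8 CPM and endothelial markers to 1.12 and 306 CPM in the same order, whereas Ighd of mature B cells stood at 83.1 and 16.6 CPM. The file names, too, carry the opposite tissue, so each library is called here by its label (liver-labelled or spleen-labelled) and no result is tied to a tissue. Cells were clustered without the members and the lists below among the genes that shaped the clusters, and clusters were named from marker genes as "neutrophil-like" and so on. Since each group was 1 pooled sample in each library, no test between groups was possible. Levels are UMIs summed over a class and group, per 1000000 gene UMIs, with 95% Poisson intervals, and ratios are log2 of the CPM in treated over vehicle cells with 95% intervals conditional on the summed UMIs. Both kinds of interval cover counting error only, not the spread between mice.

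In vehicle cells, the members were spread unevenly over the cell classes, and the order below compares each gene with itself across classes of at least 20 cells. Trp53 had its lowest measured value in neutrophil-like cells of both libraries, at 6.1 CPM (73 UMIs) in the liver-labelled library and 7.77 CPM (23 UMIs) in the spleen-labelled library. It was highest in stem and progenitor-like cells of the liver-labelled library (188 CPM), which stood above B cell-like (133) and T cell-like cells (123) by more than counting error (log2 ratios 0.50, interval 0.24 to 0.75, and 0.61, interval 0.37 to 0.85). NK cell-like cells (119 CPM, 19 UMIs) were not distinguished from them (0.66, interval -0.01 to 1.42), and neighbours among the B, T and NK cell-like cells were within counting error of each other. Granulocyte progenitor-like cells (13.7 CPM) lay below the monocyte-like cells (60.7) and above the neutrophil-like cells. B cell-like (111), T cell-like (104) and granulocyte progenitor-like cells (99.9) led in the spleen-labelled library, with no step between neighbours beyond counting error. Hepatocyte-like cells of that library, with 1 Trp53 UMI (8.83 CPM, interval 0.224 to 49.2), could not be told apart from the neutrophil-like cells. The median mitochondrial share of these hepatocyte-like vehicle cells was 93.3%, which lowers the CPM of every other gene in them.

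Cdkn1a, which encodes the cyclin-dependent kinase inhibitor p21, had another order. Monocyte-like cells of the liver-labelled library were highest at 68.1 CPM (229 UMIs), above granulocyte progenitor-like (19.8), macrophage-like (19.5), stem and progenitor-like (17.7), neutrophil-like (15.8) and NK cell-like cells (12.5), none of which differed from its neighbour beyond counting error. B cell-like and T cell-like cells held 1 Cdkn1a UMI each in vehicle cells (0.493 and 0.335 CPM). Macrophage-like (209 CPM, 165 UMIs) and monocyte-like cells (209 CPM, 157 UMIs) of the spleen-labelled library were alike within counting error and above neutrophil-like cells (85.5 CPM, 253 UMIs), with endothelial-like (55.6), granulocyte progenitor-like (46.0), hepatocyte-like (35.3), T cell-like (31.6) and B cell-like cells (9.28) below. By summed UMIs, mononuclear phagocytes therefore held the highest Cdkn1a levels in the spleen-labelled library, and the monocyte-like ones in the liver-labelled library. With the mean of each cell's CPM instead, the neutrophil-like cells of the spleen-labelled library stood at 247 CPM. Its macrophage-like and monocyte-like levels stayed within their intervals (179 to 244 and 178 to 244), so this order depended on the weight of cells.

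Mdm2, the ubiquitin ligase that limits p53, was highest in neutrophil-like cells of the liver-labelled library (63.6 CPM, 761 UMIs), above B cell-like cells (45.8) beyond counting error. Its monocyte-like (49.3), neutrophil-like (46.6) and macrophage-like (45.7) levels in the spleen-labelled library were not distinguished, and neither endothelial-like nor hepatocyte-like vehicle cells held a UMI. Ccng1, cyclin G1, which recruits a phosphatase to Mdm2, was highest in NK cell-like cells of the liver-labelled library (87.6 CPM, 14 UMIs) and in T cell-like cells of the spleen-labelled library (94.9 CPM, 21 UMIs), and the latter exceeded macrophage-like cells (49.5) beyond counting error. Trp53inp1, a stress-induced nuclear protein that binds p53 and takes part in autophagy, was led by neutrophil-like cells in the liver-labelled library (84.1 CPM, 1006 UMIs) and by B cell-like cells in the spleen-labelled library (148 CPM, 16 UMIs), where neutrophil-like cells were at 46.6 CPM, below them beyond counting error. Sesn2, sestrin 2, a stress protein that restrains mTORC1, reached 24.1 CPM (288 UMIs) and 22.3 CPM (66 UMIs) in neutrophil-like cells of the liver-labelled and spleen-labelled libraries. The neutrophil-like class of the liver-labelled library thus had the lowest Trp53 beside the highest Mdm2 and Trp53inp1 among classes of at least 20 cells. Its Trp53inp1 level was within counting error of that in NK cell-like cells (75.1 CPM, 12 UMIs).

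Among the members that promote cell death, Bax, the pore-forming protein of the mitochondrial outer membrane, was highest in monocyte-like cells (222 CPM) and lowest in neutrophil-like cells (40.1 CPM) of the liver-labelled library. Neutrophil-like cells of the spleen-labelled library (65.9 CPM) were again below B cell-like cells (130) beyond counting error. The hepatocyte-like value (17.7, 2 UMIs) was lower still, in cells whose UMIs were mostly mitochondrial. Bbc3, which encodes the BH3-only protein PUMA, was highest in T cell-like (63.7 CPM, 190 UMIs) and NK cell-like cells (62.6 CPM, 10 UMIs) of the liver-labelled library, and T cell-like cells (31.6 CPM, 7 UMIs) also led in the spleen-labelled library. Zmat3, a zinc-finger RNA-binding protein, reached 11.1 CPM (33 UMIs) in T cell-like cells of the liver-labelled library and 1.09 CPM (13 UMIs) in the neutrophil-like cells. Phlda3, an inhibitor of AKT, was close to absent from the classes of at least 20 vehicle cells. It had at most 4 UMIs in any such class of the liver-labelled library and at most 2 in those of the spleen-labelled library, so that no order could be read at this depth. The 4T1 tumor cell-like cells, too few for this order, held more of it and are described below.

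**Figure D1:**
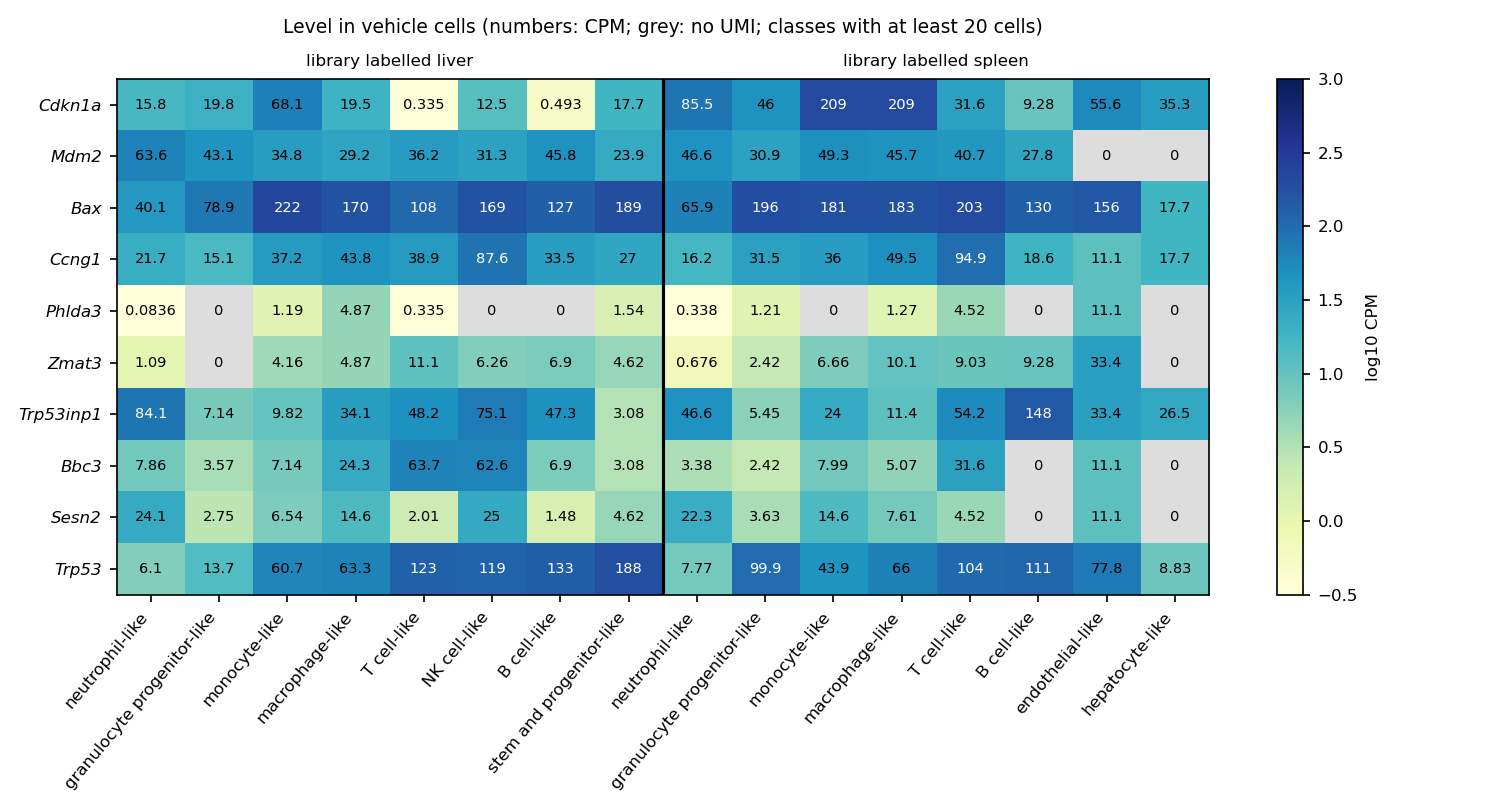
Levels of the 10 genes in vehicle cells, with genes as rows, cell classes with at least 20 cells as columns and numbers giving UMIs per 1000000 gene UMIs (shading on a log10 scale). By these summed UMIs, Cdkn1a was highest in monocyte-like cells of the liver-labelled library (68.1) and in macrophage-like and monocyte-like cells of the spleen-labelled library (both 209). Trp53 had its lowest values in neutrophil-like cells (6.1 and 7.77), close to the hepatocyte-like value (8.83), which rests on 1 UMI in mostly mitochondrial cells.

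Classes of the same name could be set side by side in both libraries for vehicle cells, where the tissue, the library preparation and the subsets within a class cannot be told apart. Cdkn1a was higher in the spleen-labelled library in each of the 4 classes where it reached 20 UMIs over both libraries. Neutrophil-like cells held 85.5 against 15.8 CPM, a 5.41-fold difference with a log2 ratio of 2.44 (interval 2.16 to 2.72). The corresponding log2 ratios were 1.62 (1.32 to 1.92) in monocyte-like cells, 3.43 (2.04 to 5.32; 165 against 4 UMIs) in macrophage-like cells and 1.22 (0.73 to 1.70) in granulocyte progenitor-like cells. Of the spleen-labelled macrophage-like cells, 54 of 60 were in cluster 4, led by Arg1 and Ccl8, with all 165 UMIs. The liver-labelled ones were in a cluster led by C1qa and Vcam1. The granulocyte progenitor-like clusters were led by Ctsg and Mpo in the spleen-labelled and by Elane and Prtn3 in the liver-labelled library. At least 1.5-fold higher genes made up 19.7% of all genes tested in neutrophil-like cells, 10.9% in monocyte-like cells, 29.0% in macrophage-like cells and 62.9% in granulocyte progenitor-like cells, so the difference in the last class was common to most genes. Trp53 in granulocyte progenitor-like cells was 99.9 against 13.7 CPM (log2 ratio 2.86, interval 2.40 to 3.35). Trp53inp1 was lower in neutrophil-like cells of the spleen-labelled library (log2 ratio -0.85, interval -1.12 to -0.59) and higher in its B cell-like (1.65, interval 0.79 to 2.42) and monocyte-like cells (1.29, interval 0.37 to 2.16). Lower genes made up 21.4% of those tested in the neutrophil-like comparison.

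The plot of Cdkn1a by class and group shows the member with the widest spread.

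**Figure D2:**
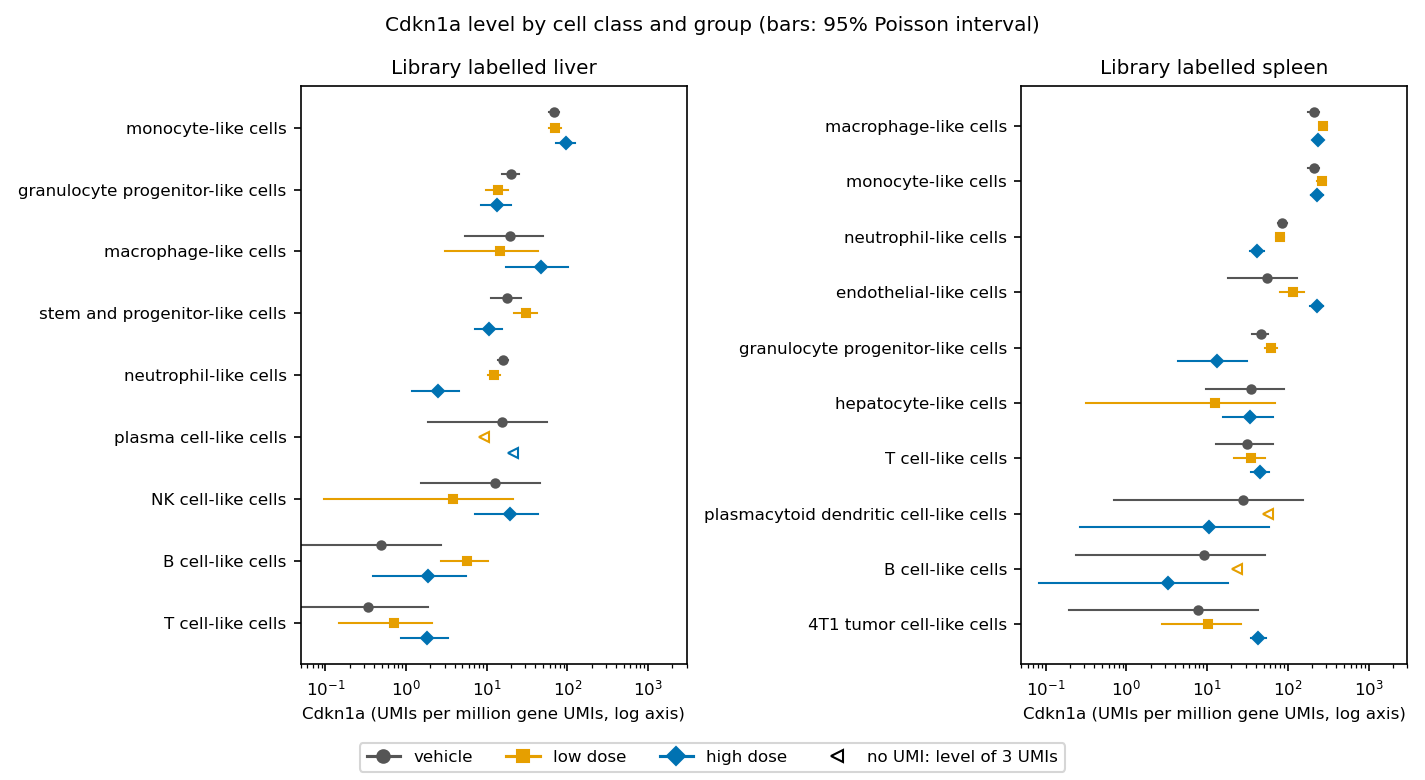
Cdkn1a in each cell class (rows) for vehicle (grey circles), low-dose (orange squares) and high-dose cells (blue diamonds) of each library, in UMIs per 1000000 gene UMIs on a log axis, with 95% Poisson intervals as bars and open triangles at the level of 3 UMIs where no UMI was found, and bars that reach the left edge going on beyond it. High-dose points lie left of the vehicle points in neutrophil-like cells of both libraries (2.46 against 15.8, and 41.8 against 85.5) and right of them in endothelial-like (229 against 55.6) and 4T1 tumor cell-like cells (43.3 against 7.71).

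The study set CBL0137 against the vehicle within a tissue, and the high-dose group was compared with the vehicle group in the same way within each class and library. Over 10 genes and the named classes of both libraries there were 190 such comparisons, of which 107 had at least 20 UMIs over both groups. In 22 of these (20.6%) the high-dose level was at least 1.5-fold higher and in 15 (14.0%) it was at least 1.5-fold lower, beside 13.1% and 14.3% of all comparisons of a gene in the same 19 classes with as many UMIs. The counting interval lay wholly above 0 in 7 and wholly below 0 in 9. Many of the higher ones, with all those of endothelial-like and 4T1 tumor cell-like cells, reached 20 UMIs through the high-dose group alone. The share of higher comparisons is therefore a description only. The differences thus ran in both directions. The members past 1.5-fold were lower in neutrophil-like and B cell-like cells of both libraries, higher in endothelial-like cells and of either direction over the other classes. In the liver-labelled library the lower ones were 4 of 8 in neutrophil-like and 1 of 7 in B cell-like cells. These counts were near the 35.1% and 10.3% of all genes that were lower there. The shares of the other classes are given below with each class.

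**Figure D3:**
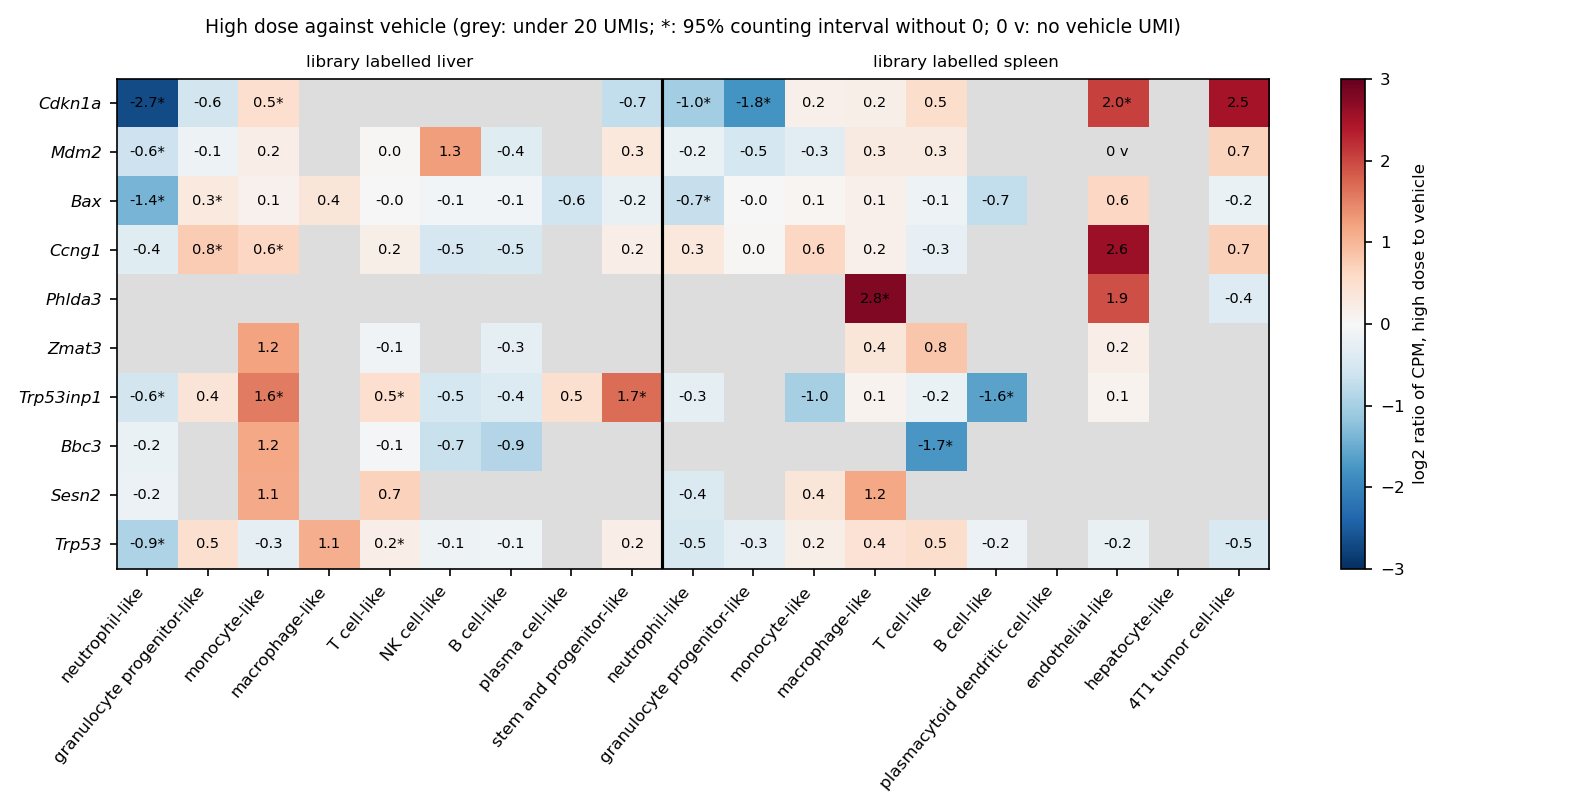
High dose against vehicle for each member (rows) in each class (columns) of both libraries, as the log2 ratio of UMIs per 1000000 gene UMIs (red higher, blue lower, grey under 20 UMIs over both groups). An asterisk marks a 95% counting interval without 0, and "0 v" marks Mdm2 with no vehicle UMI. Cdkn1a is at -2.68 and -1.03 in the neutrophil-like columns and at 2.04 in the endothelial-like column, and no member is above 0 in the B cell-like columns.

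In neutrophil-like cells of the liver-labelled library (1427 vehicle, 1291 low-dose and 200 high-dose cells), 4 of the 8 members with enough UMIs were at least 1.5-fold lower after the high dose and 0 were higher, beside 35.1% of all 9121 genes tested that were lower and 3.72% that were higher. The members' share was therefore near that of all genes, and their median log2 ratio was -0.59, beside -0.37 over all genes. Cdkn1a stood at 15.8 CPM (189 UMIs) in vehicle, 12.4 CPM (139 UMIs) in low-dose and 2.46 CPM (10 UMIs) in high-dose cells, and the high-dose log2 ratio was -2.68 (interval -3.76 to -1.77). Bax was at 40.1, 28.3 and 15.3 CPM (480, 316 and 62 UMIs), with a log2 ratio of -1.39 (-1.80 to -1.01). For both genes the high-dose interval lay below those of the other groups. Mdm2 was at 63.6, 58.9 and 41.1 CPM (log2 ratio -0.63, interval -0.88 to -0.39) and Trp53 at 6.1, 4.38 and 3.2 CPM (-0.93, interval -1.91 to -0.07). Trp53inp1 was lower by less than 1.5-fold, at 84.1, 56.0 and 57.4 CPM (-0.55, interval -0.76 to -0.34), and here the low dose was as low as the high dose. Ccng1 (21.7, 17.9 and 17.0 CPM), Sesn2 (24.1, 26.6 and 21.2 CPM) and Bbc3 (7.86, 9.21 and 6.9 CPM) had intervals that included 0. Zmat3 (13, 10 and 2 UMIs) and Phlda3 (1, 4 and 0 UMIs) were too sparse to compare.

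In neutrophil-like cells of the spleen-labelled library (361, 621 and 155 cells), 2 of 7 members were lower and 0 higher, beside 9.86% and 9.55% of all genes, and the members' median was -0.44 beside 0.02. They were Cdkn1a, at 85.5, 80.6 and 41.8 CPM (253, 317 and 97 UMIs; log2 ratio -1.03, interval -1.38 to -0.69), and Bax, at 65.9, 46.0 and 41.0 CPM (195, 181 and 95 UMIs; -0.69, interval -1.06 to -0.32). The low-dose Cdkn1a level lay beside the vehicle level and the low-dose Bax level beside the high-dose level. Mdm2 (46.6, 52.4 and 40.5 CPM), Trp53inp1 (46.6, 51.9 and 38.0 CPM), Sesn2 (22.3, 25.2 and 16.4 CPM) and Ccng1 (48, 58 and 47 UMIs, log2 ratio 0.32) differed by less than counting error. Cdkn1a and Bax were thus the members lower in the neutrophil-like cells of both libraries.

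The neutrophil-like class was made of 5 clusters in each library, and different clusters held most of it in vehicle and high-dose cells. Cluster 2 of the liver-labelled library, led by Saa3, Il1b and Csf1, held 45.5% of the vehicle and 4.5% of the high-dose cells of the class, and cluster 3, led by Il1b and Igfbp6, held 24.5% and 1.5%. They carried 132 and 47 of the 189 vehicle Cdkn1a UMIs (69.8% and 24.9%). Cluster 5, led by Stfa3 and Stfa2, and cluster 7, led by the granule genes Ltf, Camp and Ngp, held 11.0% and 13.2% of the vehicle and 55.5% and 28.0% of the high-dose cells, with 1 and 8 vehicle Cdkn1a UMIs. Cluster 3 of the spleen-labelled library, led by Ccrl2 and Il1b, held 28.0% of the vehicle and 1.94% of the high-dose cells, with 146 of the 253 vehicle Cdkn1a UMIs (57.7%), and its level was 663 CPM in vehicle, 545 CPM in low-dose and 1939 CPM in high-dose cells (19 UMIs from 3 cells). Cluster 12, led by Bcl2l15 and Orm1, had 121 of its cells in the low-dose group and 3 in the high-dose group. The median UMIs per neutrophil-like cell moved with these shares, from 4366 in vehicle to 18650.5 in high-dose cells of the liver-labelled library and from 4929 to 14147 in the spleen-labelled library.

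Over the clusters with at least 20 cells in both groups, Cdkn1a did not show the difference that the class as a whole showed. With clusters weighted by their share of the vehicle UMIs, its log2 ratio was 0.48 in the liver-labelled library and 0.086 in the spleen-labelled library. In the first library this value rests on clusters 5, 7 and 9, which had at least 20 cells in both groups but only 10 of the 189 vehicle Cdkn1a UMIs, since clusters 2 and 3 kept 9 and 3 high-dose cells. Those high-dose cells of clusters 2 and 3 held 0 and 2 Cdkn1a UMIs, and no ratio was computed there. In the second library the weighted value rests on clusters 0, 1 and 8, with 98 of 253 vehicle UMIs. Bax remained below the vehicle level with this weighting, at -0.60 and -0.54. For other members of the liver-labelled library the lower level was lost or turned, with a weighted log2 ratio of -0.032 for Mdm2, 0.014 for Trp53inp1, 0.014 for Trp53, 0.70 for Sesn2 and 0.76 for Bbc3. At clustering resolutions of 0.4 and 1.6, which drew other cells into the class, the log2 ratios in the liver-labelled library were -1.55 and -1.04 for Cdkn1a and -0.32 and -0.99 for Bax. In single clusters of the spleen-labelled library, Bax was lower in cluster 1 (-1.03) and cluster 8 (-0.53), both with an interval below 0, whereas Mdm2 was higher in cluster 8 (1.09, interval 0.33 to 1.88) and lower in cluster 0 (-2.68, interval -5.78 to -0.71). Sesn2 was higher in cluster 5 (0.74, interval 0.10 to 1.40) and cluster 9 (1.25, interval 0.15 to 2.31) of the liver-labelled library.

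**Figure D4:**
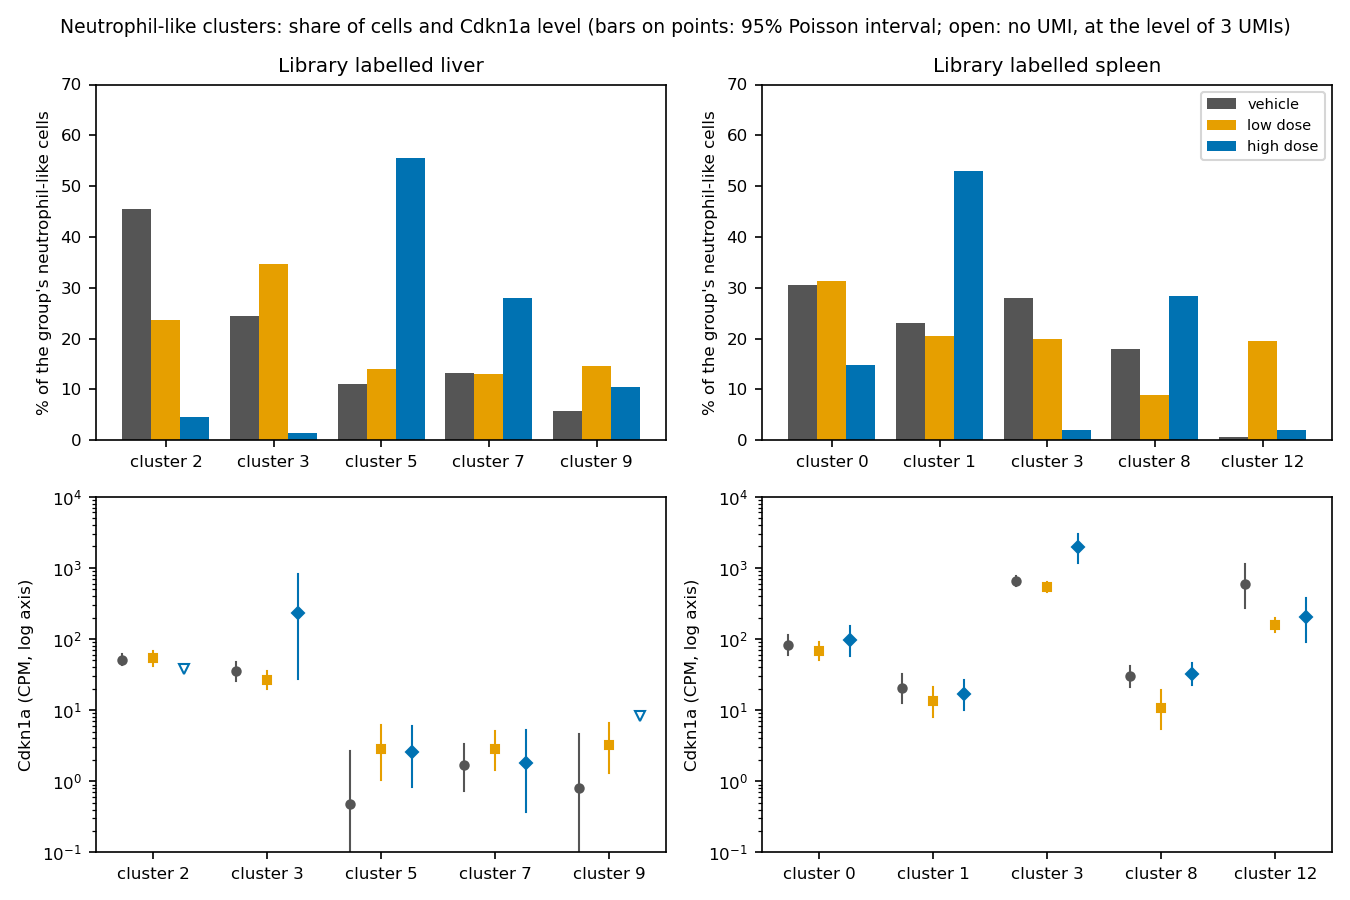
Neutrophil-like clusters of each library, with the share of each group's neutrophil-like cells in the upper panels (bars, %) and Cdkn1a in UMIs per 1000000 gene UMIs on a log axis in the lower panels (points with 95% Poisson intervals, open triangles at the level of 3 UMIs where no UMI was found) for vehicle (grey), low-dose (orange) and high-dose cells (blue). Clusters 2 and 3 of the liver-labelled library hold 45.5% and 24.5% of the vehicle but 4.5% and 1.5% of the high-dose cells, and cluster 3 of the spleen-labelled library 28.0% and 1.94%.

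Endothelial-like cells were found in the spleen-labelled library only (35, 104 and 110 cells of the vehicle, low-dose and high-dose groups), in a cluster marked by Stab2, Clec4g, Kdr, Cdh5, Ptprb and Lyve1. Here 5 of the 8 members with enough UMIs were at least 1.5-fold higher after the high dose and 0 lower, beside 26.4% of all 4594 genes that were higher and 13.2% that were lower. The count is a description only, because all 5 had fewer than 20 vehicle UMIs and reached 20 UMIs through the high-dose group alone. Mdm2, Ccng1 and Phlda3 had 0, 1 and 1 vehicle UMIs. With a minimum of 50 UMIs the count was 2. Cdkn1a was at 55.6 CPM (5 UMIs) in vehicle, 116 CPM (35 UMIs) in low-dose and 229 CPM (114 UMIs) in high-dose cells, and its log2 ratio was 2.04 (interval 0.78 to 3.69). Mdm2 had 0 UMIs in vehicle, 12 in low-dose (39.7 CPM) and 28 in high-dose cells (56.2 CPM), at least 1.69-fold higher after the high dose when the vehicle level is set at 3 UMIs. These were the members whose interval lay above 0, and for both the low-dose level stood between the other groups. Ccng1 had 1, 12 and 33 UMIs (11.1, 39.7 and 66.3 CPM; log2 ratio 2.58, interval -0.00 to 7.92) and Phlda3 1, 4 and 21 UMIs (11.1, 13.2 and 42.2 CPM; 1.92, interval -0.71 to 7.29). Bax was at 156, 231 and 241 CPM (14, 70 and 120 UMIs; 0.63, interval -0.17 to 1.54). Trp53 (77.8, 99.2 and 66.3 CPM), Zmat3 (3, 6 and 19 UMIs) and Trp53inp1 (3, 5 and 18 UMIs) had log2 ratios of -0.23, 0.19 and 0.12, and Sesn2 (1, 8 and 8 UMIs) and Bbc3 (1, 2 and 3 UMIs) were too sparse. The differences beyond counting error were thus those of Cdkn1a and Mdm2, and they rest on 5 and 0 vehicle UMIs.

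**Figure D5:**
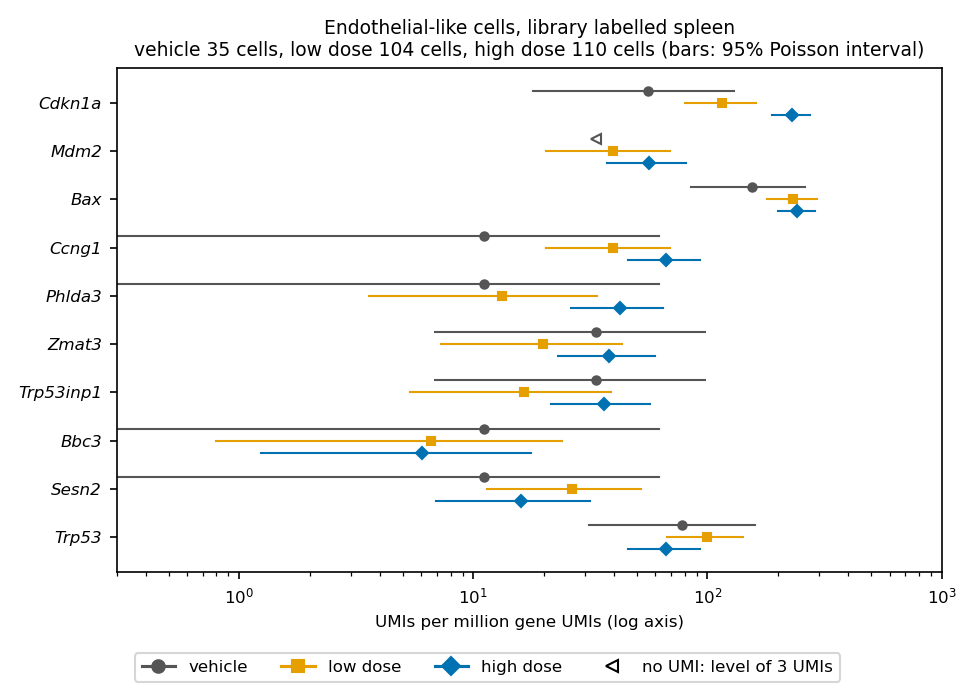
Members in endothelial-like cells of the spleen-labelled library, in UMIs per 1000000 gene UMIs on a log axis, for vehicle (grey circles, 35 cells), low-dose (orange squares, 104 cells) and high-dose cells (blue diamonds, 110 cells), with 95% Poisson intervals as bars and open triangles at the level of 3 UMIs where no UMI was found, and bars that reach the left edge going on beyond it. Cdkn1a (55.6, 116 and 229), Mdm2 (0, 39.7 and 56.2) and Ccng1 (11.1, 39.7 and 66.3) step up from vehicle to high dose, while Trp53 (77.8, 99.2 and 66.3) does not. The vehicle values of Cdkn1a, Mdm2 and Ccng1 rest on 5, 0 and 1 UMIs.

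The endothelial-like vehicle cells were few and shallow, and the groups differed in other ways. The median UMIs per cell were 1388, 2122.5 and 3462 in vehicle, low-dose and high-dose cells, the median mitochondrial share was 17.5%, 17.8% and 21.7%, and only 7, 28 and 19 cells had under 10% mitochondrial UMIs. The summed erythroid markers stood at 29566, 76 and 34 CPM, macrophage markers to 233, 638 and 1249 CPM and neutrophil markers to 1835, 3015 and 731 CPM in the same order. Their part in the result was not tested. With the cells under 10% mitochondrial UMIs alone (7 vehicle and 19 high-dose cells), Cdkn1a was at 107 and 331 CPM (3 and 51 UMIs), Mdm2 had 0 and 12 UMIs and Bax was at 143 and 344 CPM. Under the same filter Ccng1 and Phlda3 were each at 35.8 and 52.0 CPM (1 and 8 UMIs), a smaller difference than without it, and Zmat3 was at 71.6 and 45.5 CPM (2 and 7 UMIs). When each barcode was given to its dominant hashtag, the class grew to 29 vehicle and 489 high-dose cells, and Cdkn1a was at 61.2 and 204 CPM (4 and 282 UMIs), Mdm2 had 0 and 74 UMIs and Ccng1 0 and 86 UMIs, while Zmat3 was at 45.9 and 30.3 CPM (3 and 42 UMIs) and Trp53inp1 at 45.9 and 24.6 CPM (3 and 34 UMIs).

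Macrophage-like cells of the spleen-labelled library (60, 110 and 122 cells) were, beside the monocyte-like cells, the class with the most Cdkn1a in vehicle cells by summed UMIs. In them 2 of 9 members were at least 1.5-fold higher after the high dose and 0 lower, beside 14.6% and 8.51% of all genes. The members were Phlda3, with 1, 12 and 20 UMIs (1.27, 8.24 and 8.76 CPM; log2 ratio 2.79, interval 0.14 to 8.16), and Sesn2, with 6, 26 and 39 UMIs (7.61, 17.9 and 17.1 CPM; 1.17, interval -0.08 to 2.70). Both genes reached 20 UMIs through the high-dose group alone, and for both the low-dose level was beside the high-dose level. Cdkn1a was at 209, 274 and 236 CPM (165, 399 and 539 UMIs), a log2 ratio of 0.17 (interval -0.08 to 0.43) for the high dose and 0.39 (0.12 to 0.66) for the low dose. With each cell thinned to 1000 UMIs the high-dose value was 1.65. The class joined 2 clusters. In cluster 4, led by Arg1 and Ccl8, Cdkn1a was at 222, 322 and 284 CPM, with a log2 ratio of 0.36 (interval 0.10 to 0.62) for the high dose. In cluster 16, led by Marco and Clec4f (6, 25 and 39 cells), it had 0, 4 and 61 UMIs, so that its level was 17.0 CPM in low-dose and 102 CPM in high-dose cells. In this class the neutrophil markers summed to 939, 5611 and 6313 CPM and macrophage markers to 8591, 11400 and 13871 CPM in vehicle, low-dose and high-dose cells, and their part was not tested. In the liver-labelled library, the macrophage-like cells (63, 56 and 63 cells) had enough UMIs for Bax (170, 167 and 220 CPM) and Trp53 (63.3, 73.8 and 134 CPM; log2 ratio 1.08, interval -0.05 to 2.24). Trp53 was the 1 of 2 members at least 1.5-fold higher there, with 0 lower, beside 14.3% and 20.1% of all genes.

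Monocyte-like cells of the liver-labelled library (159, 98 and 26 cells) had 5 of 9 members at least 1.5-fold higher and 0 lower, beside 12.1% and 16.9% of all genes, with a median of 0.63 beside -0.04. Trp53inp1 was at 9.82, 11.8 and 28.8 CPM (33, 22 and 18 UMIs), a log2 ratio of 1.55 (interval 0.64 to 2.42), and Ccng1 at 37.2, 37.6 and 57.5 CPM (125, 70 and 36 UMIs; 0.63, interval 0.05 to 1.17). Cdkn1a was 1.41-fold higher, at 68.1, 69.9 and 95.9 CPM (229, 130 and 60 UMIs; 0.49, interval 0.06 to 0.91). For these genes the low-dose level stayed at the vehicle level and the high-dose level stood above both. Bbc3 (24, 16 and 10 UMIs), Sesn2 (22, 14 and 9 UMIs) and Zmat3 (14, 10 and 6 UMIs) had log2 ratios of 1.16, 1.14 and 1.20 with intervals that included 0. The neutrophil markers summed to 10897, 14360 and 31794 CPM in vehicle, low-dose and high-dose cells and granulocyte progenitor markers to 2725, 2222 and 1106 CPM, and their part was not tested. With a coarser clustering (resolution 0.4), which drew 191 vehicle and 84 high-dose cells into the class, the log2 ratios were -0.90 for Cdkn1a, -0.075 for Ccng1, -0.082 for Sesn2 and -0.43 for Zmat3. In the spleen-labelled library (71, 78 and 39 cells), 1 of 7 members was higher and 1 lower, beside 13.9% and 9.35%. They were Ccng1 (36.0, 39.2 and 55.1 CPM; 0.62, interval -0.17 to 1.41) and Trp53inp1 (24.0, 6.54 and 12.1 CPM; -0.99, interval -2.49 to 0.34), and Cdkn1a was at 209, 262 and 233 CPM.

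Granulocyte progenitor-like cells showed no common direction. In the liver-labelled library (108, 95 and 41 cells), Ccng1 was at 15.1, 15.7 and 25.6 CPM (log2 ratio 0.76, interval 0.16 to 1.36), the 1 of 6 members that was at least 1.5-fold higher, beside 11.0% of all genes, with 0 lower beside 5.46%. Bax was at 78.9, 71.4 and 96.8 CPM (0.29, interval 0.01 to 0.58) and Cdkn1a at 19.8, 13.8 and 13.4 CPM (-0.56, interval -1.31 to 0.13). In the spleen-labelled library (67, 80 and 14 cells), Cdkn1a was the 1 of 5 members that was lower, beside 24.9% of all genes, with 0 higher beside 6.89%. Its level was 46.0, 61.9 and 13.4 CPM (76, 137 and 5 UMIs; -1.78, interval -3.45 to -0.50). With other ways of calling hashtags this value was -0.33 and -0.28.

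T cell-like cells (592, 861 and 1020 cells in the liver-labelled library, 43, 104 and 169 in the spleen-labelled library) held little Cdkn1a in the liver-labelled library, with 1, 3 and 10 UMIs, and all 10 high-dose UMIs came from cluster 6, led by Ikzf2 and Izumo1r with Foxp3. In that library 1 of 8 members was at least 1.5-fold higher and 0 lower, beside 6.1% and 3.67% of all genes. This was Sesn2 with 6, 12 and 18 UMIs (0.69, interval -0.70 to 2.31). Smaller differences with more UMIs behind them were those of Trp53inp1, at 48.2, 59.7 and 68.0 CPM (144, 250 and 377 UMIs; 0.49, interval 0.21 to 0.78), and Trp53, at 123, 122 and 140 CPM (367, 512 and 779 UMIs; 0.19, interval 0.01 to 0.37, and -0.18 after thinning to 1000 UMIs). Bbc3 was at 63.7, 34.6 and 60.8 CPM, so the low-dose level alone was lower. For the spleen-labelled library, 1 of 8 members was higher and 1 lower, beside 24.5% and 12.9%. Zmat3 had 2, 6 and 22 UMIs (0.83, interval -1.19 to 3.96) and Bbc3 was at 31.6, 17.2 and 9.49 CPM (7, 11 and 13 UMIs; -1.74, interval -3.17 to -0.17). Cdkn1a was at 31.6, 34.5 and 45.3 CPM (0.52, interval -0.61 to 1.89) and Trp53 at 104, 94.1 and 150 CPM (0.53, interval -0.10 to 1.22). In the same cells B cell markers summed to 36.1, 37.6 and 3013 CPM and NK cell markers to 2123, 1981 and 3601 CPM, and their part was not tested.

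The other lymphoid classes were sparser. In B cell-like cells of the liver-labelled library (465, 402 and 350 cells), 0 of 7 members were higher and 1 was lower, beside 5.0% and 10.3% of all genes, and this was Bbc3 with 14, 7 and 6 UMIs (-0.87, interval -2.54 to 0.60). The groups filled the clusters of this class differently, since cluster 18, led by Vpreb3 and Vpreb1, held 46, 1 and 0 cells of the vehicle, low-dose and high-dose groups and cluster 17 held 2, 148 and 4. Cluster 1, with 417, 253 and 346, held Bbc3 with 11 vehicle and 6 high-dose UMIs (-0.65, interval -2.37 to 0.91). In B cell-like cells of the spleen-labelled library (31, 34 and 66 cells), 0 of 3 were higher and 2 lower, beside 14.7% and 19.4%. Trp53inp1 was at 148, 39.6 and 49.0 CPM (16, 5 and 15 UMIs; -1.60, interval -2.72 to -0.49), lower in both treated groups, and Bax had a log2 ratio of -0.73. In NK cell-like cells (34, 63 and 60 cells), Mdm2 was at 31.3, 83.0 and 75.1 CPM (5, 22 and 23 UMIs; 1.26, interval -0.16 to 3.01) and Bbc3 at 62.6, 52.8 and 39.2 CPM (-0.68), the 1 of 6 members that was higher and the 1 that was lower, beside 15.3% and 9.97%. Mdm2 reached 20 UMIs in this comparison through the high-dose group alone. Plasma cell-like cells (4, 11 and 7 cells) held Trp53inp1 at 282, 393 and 392 CPM, and Bax, 1 of 2 members, was lower beside 38.0% of all genes, with 0 higher beside 15.3%. In plasmacytoid dendritic cell-like cells (5, 8 and 12 cells) no member reached 20 UMIs.

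Stem and progenitor-like cells of the liver-labelled library (39, 41 and 90 cells) held Trp53 at 188, 184 and 215 CPM. Trp53inp1 was at 3.08, 7.67 and 9.89 CPM (4, 10 and 27 UMIs; log2 ratio 1.68, interval 0.16 to 3.66) and Cdkn1a at 17.7, 30.7 and 10.6 CPM (23, 40 and 29 UMIs; -0.74, interval -1.58 to 0.12). They were the 1 of 6 members that was higher and the 1 that was lower, beside 13.5% and 7.33%. The higher one, Trp53inp1, reached 20 UMIs through the high-dose group alone. In 4T1 tumor cell-like cells of the spleen-labelled library (11, 16 and 47 cells), named from Epcam, Krt8, Krt18 and Krt7, 3 of 6 members were higher and 0 lower, beside 29.3% and 21.2%. The count is a description only. Cdkn1a, Ccng1 and Mdm2 had 1, 2 and 2 vehicle UMIs and reached 20 UMIs through the high-dose group alone. Cdkn1a had 1, 4 and 92 UMIs (7.71, 10.2 and 43.3 CPM; 2.49, interval -0.02 to 7.81), while Ccng1 (2, 8 and 54 UMIs) and Mdm2 (2, 14 and 52 UMIs) had log2 ratios of 0.72 and 0.67 with intervals that included 0. The Cdkn1a ratio had no value with MULTIseqDemux, at resolution 0.4 or after thinning, and Ccng1 was at -0.17 with the mean over cells. Phlda3, at 46.2, 45.7 and 35.3 CPM (6, 18 and 75 UMIs), was present in every group of these tumor cells. Trp53 was also read in them, at 53.9, 48.3 and 39.1 CPM (7, 19 and 83 UMIs). In hepatocyte-like cells (55, 27 and 80 cells, median mitochondrial share 93.3%, 86.2% and 88.8%) no member reached 20 UMIs, and Cdkn1a had 4, 1 and 9.

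Summed over all cells of a library, the levels follow the mix of classes as well as the level within them. T cell-like cells made up 19.1% of vehicle and 47.7% of high-dose cells of the liver-labelled library and neutrophil-like cells 46.0% and 9.35%. In that library Trp53 was at 49.3, 51.0 and 101 CPM (log2 ratio 1.03, interval 0.92 to 1.13) and Cdkn1a at 20.1, 15.4 and 8.83 CPM (-1.19, interval -1.46 to -0.93). Phlda3 was higher after the high dose in both libraries, with 10, 15 and 28 UMIs in the liver-labelled library (2.10, interval 1.01 to 3.30) and 12, 45 and 129 UMIs in the spleen-labelled library (2.86, with an interval above 0). In the spleen-labelled library, 4T1 tumor cell-like cells made up 1.34% of vehicle and 5.43% of high-dose cells. Within that class, which held Phlda3 in every group, the log2 ratio of Phlda3 was -0.39. In macrophage-like and endothelial-like cells of the same library, Phlda3 was at least 1.5-fold higher, from 1 vehicle UMI in each. The part of each class in the summed level was not tested. Over all cells 4 of 10 members were at least 1.5-fold higher and 2 lower in the liver-labelled library, beside 26.5% and 10.9% of all genes, and 2 of 10 were higher and 0 lower in the spleen-labelled library, beside 28.1% and 5.54%.

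The low dose was compared with the same vehicle cells, so its values are not independent of those of the high dose and are only set beside them. Of the 190 comparisons 96 had at least 20 UMIs, 6 were at least 1.5-fold higher and 7 lower, beside 10.4% and 9.07% over all genes, and the interval lay above 0 in 2 and below 0 in 4. In neutrophil-like cells, 1 of 9 members was lower and 0 higher in the liver-labelled library, beside 9.71% and 3.24% of all genes, and 1 of 8 was higher and 0 lower in the spleen-labelled library, beside 7.65% and 12.3%. The lower gene was Trp53inp1 (84.1 against 56.0 CPM; log2 ratio -0.59, interval -0.73 to -0.44). Trp53inp1 was also lower within clusters 2 (-0.61), 3 (-0.88) and 9 (-0.60) of the liver-labelled library and within clusters 0 (-1.12) and 3 (-1.08) of the spleen-labelled library, each with an interval below 0. The neutrophil-like class of the spleen-labelled library as a whole was not lower in Trp53inp1 after the low dose, so the cluster values there do not stand for the class. The higher gene was Bbc3 in the spleen-labelled library (3.38 against 9.16 CPM, 10 and 36 UMIs; 1.44, interval 0.40 to 2.61). Bax was lower in both libraries by less than 1.5-fold (-0.51, interval -0.72 to -0.30, and -0.52, interval -0.82 to -0.22). In T cell-like cells of the liver-labelled library, Bbc3 was the 1 of 7 members that was lower (63.7 against 34.6 CPM, 190 and 145 UMIs; -0.88, interval -1.20 to -0.56), beside 3.98% of all genes, with 0 higher beside 5.45%, and it was lower within cluster 0 (-0.99) and cluster 4 (-0.95). In endothelial-like cells, Cdkn1a (1.06, interval -0.30 to 2.77) was the 1 of 3 members that was higher, beside 27.7%, with 0 lower beside 9.7%. In macrophage-like cells of the spleen-labelled library, 2 of 9 members were higher and 0 lower, beside 11.6% and 9.38%, namely Bbc3 (4 and 19 UMIs; 1.36, interval -0.23 to 3.38) and Sesn2 (6 and 26 UMIs; 1.23, interval -0.08 to 2.80). Cdkn1a in endothelial-like cells, and Bbc3 of neutrophil-like and Sesn2 of macrophage-like cells in the spleen-labelled library, reached 20 UMIs through the low-dose group alone.

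Of 30 other p53 target genes, 21 had enough UMIs in neutrophil-like cells of the liver-labelled library, and 13 of these were at least 1.5-fold lower after the high dose and 1 was higher, with a median log2 ratio of -0.73, in a class where 35.1% of all genes were lower and the median was -0.37. In the spleen-labelled library the counts were 4 lower and 1 higher of 14, with a median of -0.14, beside 9.86% and 9.55% of all genes and a median of 0.02. The neutrophil-like values of other p53 targets, BCL2 family members and p53 regulators are for the class as a whole. Its clusters held different shares of vehicle and high-dose cells, and no ratio within clusters was computed for these genes. Genes lower in both libraries were Btg2, an antiproliferative transcriptional cofactor, at 287 and 122 CPM in vehicle and high-dose cells of the liver-labelled library and 366 and 131 CPM in the spleen-labelled library (log2 ratios -1.23 and -1.48), Fas, a death receptor (-1.17 and -1.40), and Pmaip1, which encodes the BH3-only protein NOXA, with 186 and 3 UMIs and 30 and 8 UMIs (-4.40 and -1.56). Of 8 other BCL2 family members, 3 of 7 were lower in the liver-labelled library and 2 of 6 in the spleen-labelled library, beside 35.1% and 9.86% of all genes. Both libraries shared Bcl2l11, which encodes BIM (-1.56 and -0.86), and Bcl2l1, which encodes the survival protein BCL-XL (-0.70 and -0.61). Of 12 p53 regulators, 4 of 8 were lower and 0 higher in neutrophil-like cells of the liver-labelled library, beside 35.1% and 3.72% of all genes. In endothelial-like cells, 0 of 8 other p53 targets were higher and 1 was lower, and 4 of 8 regulators were higher and 0 lower, namely Usp7, Ep300, Csnk2b and Ssrp1, beside 26.4% of all genes higher and 13.2% lower.

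In T cell-like cells, 1 of 20 other p53 targets was higher and 2 lower in the liver-labelled library, beside 6.1% and 3.67% of all genes. In the spleen-labelled library 4 of 18 were higher and 5 lower, beside 24.5% and 12.9%. Of 10 proliferation genes, 6 of 7 with enough UMIs were higher in the liver-labelled library (median 1.62) and 10 of 10 in the spleen-labelled library (median 2.41), with 0 lower in either, beside 6.1% and 24.5% of all genes higher. Those higher in both were Mki67 (1.28 and 3.10), the cyclin genes Ccna2 (3.57 and 1.35) and Ccnb2 (1.62 and 1.45), Cdc20 (1.11 and 0.94), Birc5 (1.91 and 1.01) and Ccnb1 (2.16 in the liver-labelled library, and 0 against 78 UMIs in the spleen-labelled library). Proliferation genes also stood higher in neutrophil-like cells of the liver-labelled library (5 of 10, median 0.61, beside 3.72% of all genes) and in 4T1 tumor cell-like cells (10 of 10, median 3.58, beside 29.3%) and lower in monocyte-like cells of the liver-labelled library (10 of 10, median -1.13, beside 16.9%). The vehicle and high-dose groups held 129770 and 2124884 gene UMIs in 4T1 tumor cell-like cells, and 221394 and 1369712 in spleen-labelled T cell-like cells. Genes higher in these 2 classes reached 20 UMIs mainly through the high-dose group, so their counts are a description only. No relative of p53, Trp63 or Trp73, reached 20 UMIs in these classes.

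Across the 47 sums of class, group and library with at least 50 cells, the genes whose level ran most like that of Cdkn1a among 8382 genes were Atf3 (Pearson r = 0.87), Tubb6 (0.86), Rnase4 (0.85), Ctsl (0.85) and Msr1 (0.85), on log2(CPM + 10). The points share libraries, mice and depth, so these values describe the tables only. No other member was among these 5.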

How the data were processed

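The study profiled single cells by 10x Genomics RNA sequencing with hashtag antibodies. The authors deposited, per library, a matrix of raw UMI counts per gene and barcode, already filtered to cells, with the hashtag counts as extra rows, and these counts were used as deposited. Reads were aligned to mm10. Cell Ranger is given as version 6.0.0 in the submitters' processing notes and 5.0.0 in the matrix header, and the study's methods name another version. Every barcode had at least 500 UMIs, and mitochondrial shares reached 99.0%.

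Here barcodes were given to groups with HTODemux of Seurat 5.3.0 (positive quantile 0.99, R 4.3.3), which left out 616 and 215 barcodes with several hashtags and 540 and 1627 with none in the liver-labelled and spleen-labelled libraries. No doublet caller was run beyond this. Counts were normalised with sctransform 0.4.2, and 30 principal components and a resolution of 0.8 gave 20 and 18 clusters. The members and lists were left out of the variable genes. A cluster was named where at least 3 fixed markers of a class were raised. No other class could hold more markers among the cluster's 10 leading genes, and shallow clusters without a leading marker stayed unnamed. Clusters 8, 12 and 13 of the liver-labelled and 7 and 15 of the spleen-labelled library were unnamed and entered only the sums over all cells. UMIs were summed by class and group and divided by all gene UMIs of that sum (CPM, scale 1000000), with Python 3.11.15, numpy 2.4.6, scipy 1.17.1, pandas 2.3.3 and matplotlib 3.10.9. Ratios were computed with exact conditional binomial intervals, and a gene was counted with at least 20 UMIs and a 1.5-fold difference. No test between groups was run, because each group was 1 pooled sample per library. The script was tested on simulated data.

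The members and lists were chosen with earlier results of these data known. The 10 members are always named. Another list gene is named only where it was at least 1.5-fold off in the same direction in the neutrophil-like or the T cell-like cells of both libraries, and genes like Cdkn1a are the 5 with the highest correlation. The p53 regulators higher in endothelial-like cells, the leading genes of clusters and the relatives of p53 were named after their values were seen. Alternatives covered the hashtag caller, a cell filter, the resolution, the weight of cells, edgeR 4.0.16 (TMM) and DESeq2 1.42.0 (median-of-ratios) scaling, cluster weights and the thresholds. Columns of other samples numbered 0.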

Additional observations from a re-analysis of the deposited data

Results flagged for a closer look

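Trp53inp1 in monocyte-like cells went opposite ways in the libraries after the high dose. The log2 ratio to the vehicle was 1.55 in the liver-labelled library (33 vehicle and 18 high-dose UMIs) and -0.99 in the spleen-labelled library (18 and 7 UMIs). The difference between the libraries was not tested, since each group was 1 pooled sample in each.

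Barcodes without a single hashtag entered no comparison, and in them some members were higher and others lower than in vehicle cells beyond counting error. There were 1156 such barcodes in the liver-labelled library, where Trp53 stood at 63.3 CPM, beside 49.3 CPM in vehicle cells, and Mdm2 at 40.9 CPM, beside 49.4 CPM. There were 1842 in the spleen-labelled library, where Phlda3 stood at 9.59 CPM (71 UMIs), beside 1.68 CPM in vehicle cells, and Zmat3 at 7.57 CPM (56 UMIs), beside 3.79 CPM. Cdkn1a was lower there, at 70.5 CPM beside 99.6 CPM in vehicle cells. The main call gave these cells no single group. With each barcode given to its dominant hashtag, high-dose endothelial-like cells of the spleen-labelled library went from 110 to 489. Its high-dose macrophage-like cells went from 122 to 349. The vehicle cells of these classes went from 35 to 29 and from 60 to 83. In the liver-labelled library, macrophage-like cells went from 63 to 67 in the high-dose group and from 63 to 103 in the vehicle group.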

How the results depend on the processing

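Of 1029 values of the high-dose ratio of a member in a class computed under another setting, 970 stayed within the counting interval of the main value, 51 left it without turning a difference of 1.5-fold or more, and 8 turned the sign of one. The settings were unequal in this. TMM and median-of-ratios scaling each kept 104 of 106 values within the interval. After thinning to 1000 UMIs, which sets cells to equal depth, 17 of 34 stayed, 16 left it and 1 was reversed. The other ratios had no value there, so most could not be examined at equal depth. In all, 82 values had another sign than the main one. Besides those 8, there were 3 for which the main interval lay off 0, namely Cdkn1a in monocyte-like cells of the liver-labelled library at resolution 0.4 (-0.90), Trp53inp1 in its neutrophil-like cells with cluster weights (0.014) and Trp53 in its T cell-like cells after thinning (-0.18), and 71 for which it held 0. Among differences of 1.5-fold or more the sign changed for Cdkn1a in neutrophil-like cells with clusters weighted by their vehicle UMIs (0.48 in the liver-labelled library, 0.086 in the spleen-labelled library) and for Trp53 in the same cells of the liver-labelled library (0.014). It changed at resolution 0.4 in monocyte-like cells of the liver-labelled library for Ccng1 (-0.075), Zmat3 (-0.43) and Sesn2 (-0.082), with the mean over cells in 4T1 tumor cell-like cells for Ccng1 (-0.17), and after thinning to 1000 UMIs in endothelial-like cells for Bax (-1.17). The cause was not tested, except that weighting removes by construction the differences in cluster shares. TMM scaling raised every gene of the neutrophil-like ratio in the liver-labelled library by 0.30 and median-of-ratios scaling by 0.34. Of 68 vehicle levels, 54 stayed within their intervals with the mean over cells and 14 moved.

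The counts of members past 1.5-fold moved as follows. In neutrophil-like cells of the liver-labelled library, the 0 higher became 2 with cluster weights, and the 4 lower became 2 at either other resolution and at a 2-fold threshold, 8 with the mean over cells, 7 after thinning and 1 with cluster weights. In those of the spleen-labelled library, the 2 lower became 4 with the dominant hashtag and after thinning, 6 with the mean over cells, 0 with cluster weights and 1 at 2-fold. In T cell-like cells of the liver-labelled library, the 1 higher became 2 at resolutions 0.4 and 1.6 and after thinning, 3 at a minimum of 10 UMIs, and 0 with cluster weights, at a minimum of 50 UMIs and at 2-fold. In those of the spleen-labelled library, the 1 higher became 0 at resolution 1.6, after thinning, at 50 UMIs and at 2-fold, and 2 with cluster weights and at 10 UMIs. The 1 lower there became 0 with MULTIseqDemux, the dominant hashtag, the cell filter, resolution 1.6 and 50 UMIs, and 2 with cluster weights. In endothelial-like cells, whose alternatives were added after seeing the data, the 5 higher became 2 with the cell filter and at 50 UMIs and 1 after thinning, and the 0 lower became 1 with MULTIseqDemux, the mean over cells and thinning and 2 with the dominant hashtag.

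No paired analysis was possible because each group was 1 pooled sample in each library and the result comes from no test. The vehicle cells of the endothelial-like, 4T1 tumor cell-like and plasma cell-like classes hold few UMIs, so ratios there have wide intervals, and no interval covers the spread between mice.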
